A study of Mus musculus with 6 samples.

Results

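The 4 genes Atp1a4, Atp1b1, Atp1b2 and Atp1b3 encode subunits of the sodium-potassium ATPase and were chosen by symbol, as 4 of the 55331 gene rows that the authors deposited from Cuffdiff. All 4 had a row and were among the 22048 genes tested. The RNA was polyadenylated RNA of whole mouse testes at 35 days of age, on a mixed strain background. PTBP1_KO mice (3 libraries) carried floxed Ptbp1 alleles together with one copy of Amh-Cre (genotype Ptbp1fl/fl; Amh-Cre+/-), a recombinase driven by the Amh promoter, which is active in Sertoli cells; these somatic cells enclose and feed the developing germ cells. WT mice (3 libraries) carried the same floxed alleles (Ptbp1fl/fl) without Cre, so the label WT stands for floxed mice. PTBP1 is an RNA-binding protein that regulates splicing, and the study asked about its role in Sertoli cells. Amh-Cre on unfloxed Ptbp1 is not among the groups, and an effect of the transgene cannot be told apart from that of the deletion. The labels do not state that the libraries are separate animals. Each gene has 1 FPKM value per group (fragments per kilobase of transcript, scaled to the size of the library), so no spread between libraries can be given, and test results speak for these libraries only.

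The sodium-potassium ATPase exports sodium and imports potassium at the cost of ATP, and the gradient drives secondary transport, cell volume control and membrane excitability. Its alpha subunit holds the catalytic and ion-binding sites, and its glycosylated beta subunit carries the alpha subunit to the plasma membrane and takes part in cell adhesion. Small membrane proteins of the FXYD family bind the pump and tune it. Atp1a4 encodes the alpha isoform of male germ cells, which sits in the sperm flagellum and is needed for sperm motility and male fertility in mice. Atp1b1 encodes the common beta isoform of epithelia, Atp1b2 the beta isoform first described as an adhesion molecule on glia, and Atp1b3 another widely expressed beta isoform.

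Atp1b2 was the only member past q under 0.05 in the deposited test, and the others are described by their values. That call did not hold at q under 0.01. Atp1b2 (ENSMUSG00000041329.13) lies on chromosome 11 from 69599736 to 69605942 (mm10, minus strand), with 7 exons in its longest coding transcript. Atp1a4 (ENSMUSG00000007107.6) lies on chromosome 1 from 172223513 to 172258414 with 23 exons, and Atp1b1 (ENSMUSG00000026576.12) on the same chromosome from 164437109 to 164458355 with 6 exons. Atp1b3 (ENSMUSG00000032412.8) lies on chromosome 9 from 96332655 to 96364442 with 7 exons. All 4 are on the minus strand. Promoter sequences of RefSeq (GRCm38.p6, the same assembly as mm10) were matched by symbol for 3 of the 4 genes, Atp1a4, Atp1b1 and Atp1b3. They are shown because the germ cell alpha gene and its widely expressed beta partners had unlike start regions. Each is the 250 bases before the start that the RefSeq table gives, which for Atp1a4 and Atp1b3 is not the same base as the gene's end in the coordinates above, 5′ to 3′ on the minus strand, and capitals mark matches on either strand to the TATA box TATAAA, the CCAAT box CCAAT, the GC box GGGCGG and the half-site TGACG of the cyclic AMP response element.
Atp1a4, chr1:172258425-172258674: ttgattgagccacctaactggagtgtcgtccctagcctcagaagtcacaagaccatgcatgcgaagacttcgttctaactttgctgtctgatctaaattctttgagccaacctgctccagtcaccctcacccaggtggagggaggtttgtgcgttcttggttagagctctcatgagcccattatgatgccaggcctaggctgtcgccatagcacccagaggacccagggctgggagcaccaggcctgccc
Atp1b1, chr1:164458356-164458605: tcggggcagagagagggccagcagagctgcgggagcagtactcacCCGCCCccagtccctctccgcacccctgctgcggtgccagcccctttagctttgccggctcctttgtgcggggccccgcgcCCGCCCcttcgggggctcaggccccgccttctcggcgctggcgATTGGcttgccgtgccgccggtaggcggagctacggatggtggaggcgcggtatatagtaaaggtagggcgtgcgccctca
Atp1b3, chr9:96364432-96364681: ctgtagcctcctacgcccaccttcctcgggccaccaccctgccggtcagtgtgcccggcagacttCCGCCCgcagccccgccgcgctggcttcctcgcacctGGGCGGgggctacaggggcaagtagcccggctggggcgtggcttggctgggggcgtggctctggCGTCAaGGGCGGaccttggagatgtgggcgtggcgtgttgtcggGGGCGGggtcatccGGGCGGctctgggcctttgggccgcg

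The Atp1a4 window held 5 CG dinucleotides at 54.8% GC and none of the 4 motifs. Both beta windows were far richer in CG, with 24 CG dinucleotides each, at 70.4% GC for Atp1b1 and 73.6% GC for Atp1b3. Of 32851 mouse promoters of the same length, the median held 6 CG dinucleotides, and 10.7% held more than the 24 of Atp1b1 and Atp1b3. The GC box was found 2 times for Atp1b1 and 5 times for Atp1b3, and in 32.7% of all promoters. The CCAAT box was found once for Atp1b1 and in 33.8% of all promoters, and the half-site once for Atp1b3 and in 17.8% of them. The TATA box letters, present in 12.4% of all promoters, were in none of the 3 windows. Only the exact letters TATAAA were sought, and similar letters, such as the tatata near the end of the Atp1b1 window, were not counted. The table lists a further start for Atp1b3, inside the gene (chr9:96363716-96363965), with 35 CG dinucleotides and no match to the 4 motifs. A match describes letters in the window and is not evidence of binding.

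The depth behind these values was read from the discrete steps of low FPKM values, since the table holds no counts. At 1 FPKM and an effective length of 1 kb a gene rested on about 204 fragments in PTBP1_KO and 226 fragments in WT. By this scale, and with the longest coding transcript as the length, Atp1a4 rested on about 132000 fragments in PTBP1_KO and 136000 in WT. Atp1b2 rested on about 11200 fragments in PTBP1_KO and 9320 in WT, and Atp1b1 on the fewest, 7720 in PTBP1_KO and 8760 in WT. The counting error of the log2 ratio is therefore small, from 0.0056 for Atp1a4 to 0.0225 for Atp1b1, while the spread between libraries is not known. Markers of the labelled tissue were present: the Sertoli cell marker Clu stood at 1199 FPKM in PTBP1_KO and 854 FPKM in WT, and the spermatid gene Prm1 at 16362 FPKM in PTBP1_KO and 13135 FPKM in WT. Ptbp1 itself stood at 46.7 FPKM in PTBP1_KO and 49.97 FPKM in WT (q = 0.999, authors' deposited table), which in whole testis does not check the deletion.

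Atp1a4, the germ cell alpha subunit, was among the abundant transcripts of the testis. It stood at 203 FPKM in PTBP1_KO and 188 FPKM in WT, above 97.0% of tested genes in PTBP1_KO and 96.5% in WT. The value in PTBP1_KO was 1.08 times that in WT, and the authors' deposited table lists a log2 ratio of 0.11 and q = 0.925. The fold is small beside the 0.42 of Atp1b2, and Atp1a4 did not pass the threshold. Over bulk tissue a level of this kind mixes all cell types, and fewer cells of a type and less RNA per cell cannot be told apart.

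**Figure D1:**
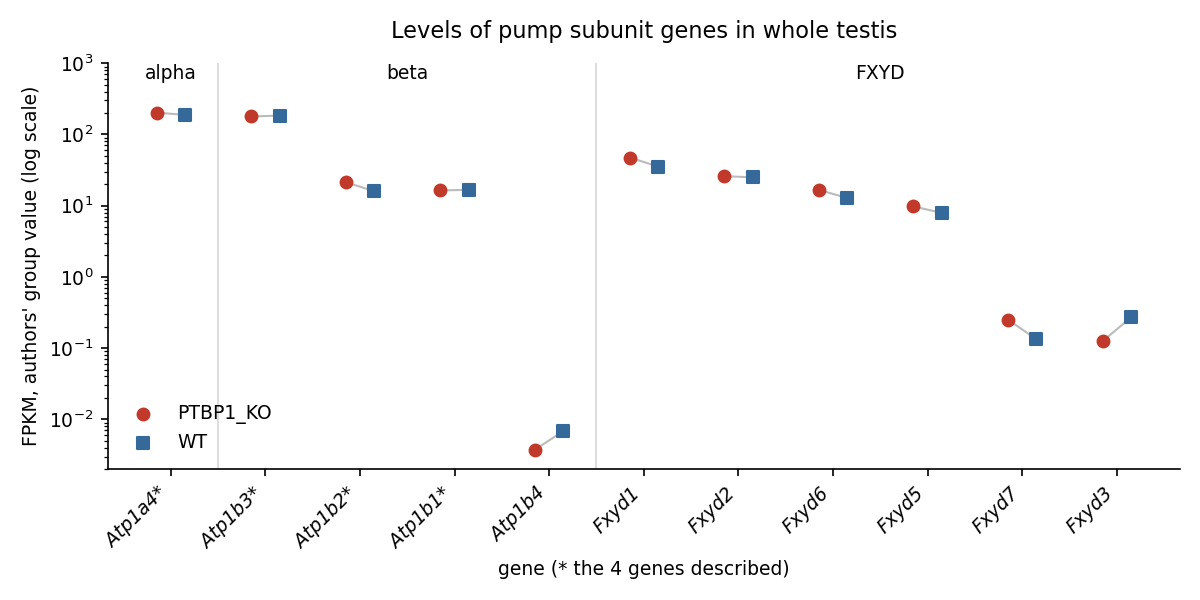
Group FPKM of Atp1a4 and the beta and FXYD genes on a log axis, with PTBP1_KO as circles and WT as squares, 1 value per group and no error bars because the table holds none. Atp1a4 (203 FPKM in PTBP1_KO, 188 FPKM in WT) and Atp1b3 (179 FPKM in PTBP1_KO, 184 FPKM in WT) stand near each other and above the other genes drawn. Fxyd4, listed at 0 in WT, is not drawn.

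Among beta subunits Atp1b3 was by far the most abundant transcript. It stood at 179 FPKM in PTBP1_KO and 184 FPKM in WT, above 96.4% of tested genes in either group. The authors' deposited table lists a log2 ratio of -0.04 and q = 0.999. Per length, Atp1a4 and Atp1b3 were close to parity: their FPKM ratio was 1.13 in PTBP1_KO and 1.02 in WT. The summed beta FPKM was 216 in PTBP1_KO and 217 in WT. The level of Atp1b3 was 10.9 times that of Atp1b1 in PTBP1_KO and 11.02 times in WT, and 8.37 times that of Atp1b2 in PTBP1_KO and 11.5 times in WT. These ratios describe transcripts, and no test of them could be made without values per library.

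Atp1b2 rose. It stood at 21.3 FPKM in PTBP1_KO and 16.0 FPKM in WT, 1.34 times the WT value. In the authors' deposited table its log2 fold change was 0.42 with an unadjusted p of 0.00025 and q = 0.0281. It was thus 1 of 4 members past the threshold of q under 0.05, where 1.16% of all tested genes passed, 0.458% as higher and 0.703% as lower. A set of 4 genes is too small for that count to say anything about the family as a whole. The change was modest next to other calls: of the 97 genes called higher with a value above 0 in both groups, 5 had a smaller fold, and their median log2 fold change in the authors' deposited table was 0.68. It was large next to genes of its level: of 2222 other tested genes within 0.5 log2 units of its mean level, 21 (0.945%) had a fold at least as high. The call did not survive another way of obtaining p. The deposited statistic of 2.08, read against a normal distribution and adjusted over all tested genes, gave an adjusted value of 1. In that reading 0 of 4 members passed, and 0.0862% of all tested genes did (0.0408% as higher, 0.0454% as lower). The loss was general, with 256 genes past the threshold in the deposited test and 19 in this reading. Whether the statistic follows a normal distribution was not tested, so this reading is no separate check of Atp1b2. At the stricter threshold of q under 0.01 again 0 members passed, where 0.59% of all tested genes did.

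Atp1b1 stood at 16.4 FPKM in PTBP1_KO and 16.7 FPKM in WT, and the authors' deposited table lists a log2 ratio of -0.03 and q = 0.999. Its 3′ end overlaps Nme7 on the other strand. Atp1b2 and Atp1b1 were therefore at nearly the same level in WT, at a ratio of 0.956, and apart in PTBP1_KO, at a ratio of 1.31. The share of Atp1b2 in the summed beta FPKM was 9.86% in PTBP1_KO and 7.37% in WT. The share of Atp1b3 was 82.6% in PTBP1_KO and 84.9% in WT, and that of Atp1b1 7.56% in PTBP1_KO and 7.71% in WT. Atp1b4, whose protein in mammals belongs to the inner nuclear membrane of muscle and is no pump subunit, was at 0.00375 FPKM in PTBP1_KO and 0.00683 FPKM in WT and was not tested. The level order of the beta genes was Atp1b3, Atp1b2, Atp1b1, Atp1b4 in PTBP1_KO and Atp1b3, Atp1b1, Atp1b2, Atp1b4 in WT. Whether Atp1b1 and Atp1b2 differ in WT beyond the spread between libraries cannot be said from these values.

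**Figure D2:**
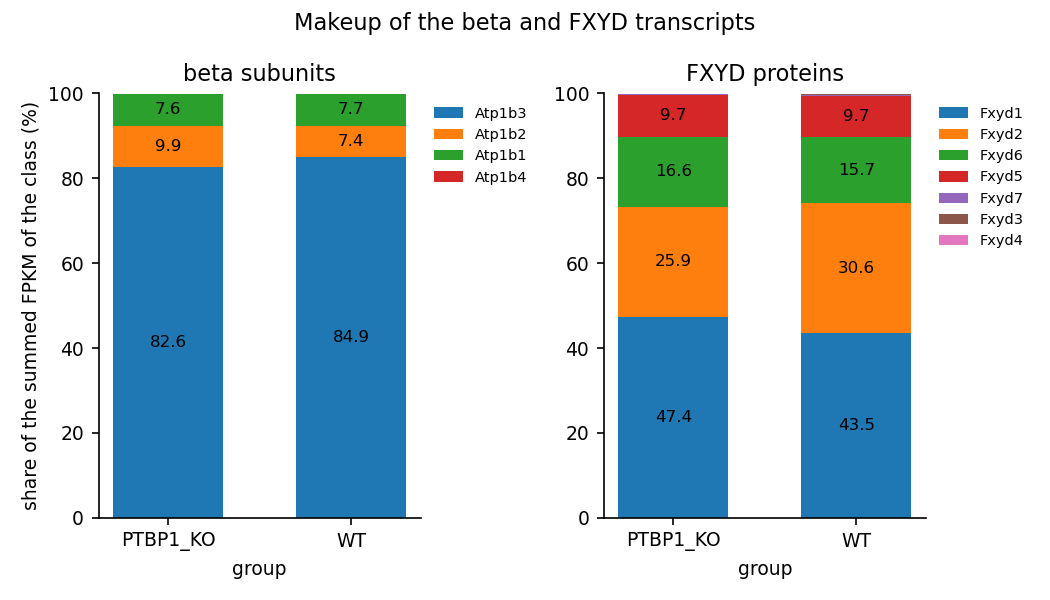
Share of each gene in the summed FPKM of its class in percent, with PTBP1_KO on the left and WT on the right of each panel. Atp1b3 makes up 82.6% of the beta class in PTBP1_KO and 84.9% in WT, and Atp1b2 makes up 9.86% of the beta class in PTBP1_KO and 7.37% in WT.

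The regulatory FXYD genes gave no call, although 6 of 7, the untested Fxyd4 among them, had a higher value in PTBP1_KO, as did 50.9% of all tested genes. Of 7 FXYD genes 6 were tested, none passed in either direction, and 2 had an unadjusted p under 0.05 in the authors' deposited table, where 8.98% of all tested genes did. The 2 were Fxyd1 (phospholemman, the pump regulator of heart and muscle) and Fxyd6. Fxyd1 stood at 47.4 FPKM in PTBP1_KO and 35.5 FPKM in WT, and the authors' deposited table lists a log2 ratio of 0.42 and q = 0.149. This is the fold of Atp1b2 at a higher level, without a call. Fxyd6 stood at 16.6 FPKM in PTBP1_KO and 12.8 FPKM in WT, and the authors' deposited table lists a log2 ratio of 0.38 and q = 0.113. Fxyd2, the gamma subunit of the kidney pump, stood at 25.9 FPKM in PTBP1_KO and 25.0 FPKM in WT, with q = 0.999 in the authors' deposited table. Fxyd5 (dysadherin) stood at 9.76 FPKM in PTBP1_KO and 7.90 FPKM in WT (q = 0.731 in the authors' deposited table). Fxyd3 and Fxyd7 were under 0.3 FPKM in both groups, and Fxyd4 was listed at 0 in WT. The FXYD list had a median log2 fold change of 0.34 over 6 genes, beside 0.005 over 22020 tested genes with a value above 0 in both groups. With a pseudocount of 1, which weighs down Fxyd3 (-1.11 as deposited) and Fxyd7 (0.91), the median was 0.21.

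Other genes around the pump gave no call either. Over all tested genes 1.16% passed q under 0.05 in the authors' deposited table, and 8.98% had an unadjusted p under 0.05. Counts of 0 in lists this small therefore say little about them. The 4 Nkain genes encode membrane proteins that bind the pump's beta subunit; 3 were tested, and Nkain2 alone had an unadjusted p under 0.05, at 0.672 FPKM in PTBP1_KO and 0.244 FPKM in WT (q = 0.236 in the authors' deposited table). Of 12 genes of related ion-pumping ATPases 11 were tested and 0 passed or had an unadjusted p under 0.05. Among these, the calcium pump of the endoplasmic reticulum Atp2a2 stood at 41.9 FPKM in PTBP1_KO and 42.0 FPKM in WT. The plasma membrane calcium pump Atp2b4, which serves sperm motility in mice, stood at 22.9 FPKM in PTBP1_KO and 23.4 FPKM in WT. Of 10 genes of proteins that anchor, signal to or remove the pump, 0 passed. In this list 7 had a higher value in PTBP1_KO and 3 a lower one, where 50.9% of all tested genes were higher. The median log2 fold change of the 10 was 0.19. Among them the anchoring protein Ank2 stood at 59.5 FPKM in PTBP1_KO and 59.7 FPKM in WT. Its relative Ank3, at 2.58 FPKM in PTBP1_KO and 3.39 FPKM in WT, had p = 0.0244 before adjustment and q = 0.413 by the authors' deposited table. The scaffold Pdzk1 stood at 162 FPKM in PTBP1_KO and 159 FPKM in WT.

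**Figure D3:**
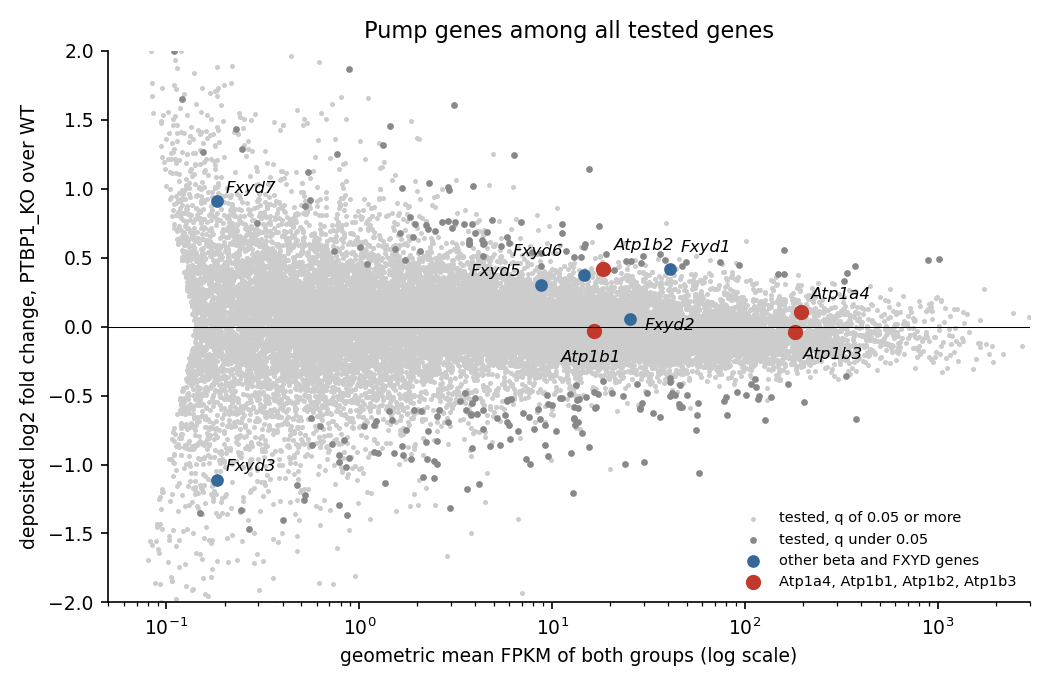
Deposited log2 fold change of PTBP1_KO over WT against the geometric mean FPKM of both groups (log axis) for tested genes above 0 in both groups, with genes of q under 0.05 in dark grey. Atp1b2, at 0.42, lies at the upper edge of genes at its level, and Atp1a4, Atp1b1 and Atp1b3 lie within the bulk. The axis ends at 2 log2 units either way, which leaves 131 of 22020 genes outside.

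Markers of several somatic cell types had higher values in PTBP1_KO beside Atp1b2. Counts of higher genes are to be read against the 50.9% of all tested genes that were higher. Counts of genes past q under 0.05 are to be read against 1.16% of all tested genes, 0.458% as higher. Sertoli cell markers were higher in 16 of 20, with a summed level of 2106 FPKM in PTBP1_KO and 1817 FPKM in WT, and Clu, a secreted chaperone, passed the threshold. Clu alone carried the difference of the sums. Without it the other 19 summed to 907 FPKM in PTBP1_KO and 964 FPKM in WT, a ratio of 0.941. Ctsl, the most abundant of these 19, stood at 323 FPKM in PTBP1_KO and 397 FPKM in WT. The median log2 fold change of all 20 was 0.19. Stroma and myoid markers were higher in 10 of 11 (433 FPKM summed in PTBP1_KO, 361 FPKM in WT; Col1a1 and Dcn passed), leukocyte markers in 9 of 9 (60.8 FPKM in PTBP1_KO, 43.8 FPKM in WT; C1qb and Fcer1g passed) and endothelial markers in 7 of 7 (13.0 FPKM in PTBP1_KO, 11.2 FPKM in WT; 0 passed). Spermatogonial markers were higher in 8 of 9 (100.3 FPKM in PTBP1_KO, 84.0 FPKM in WT; Kit and Uchl1 passed). Uchl1 carried most of that difference, and the other 8 had a ratio of 1.04. Leydig cell markers were split, with 5 of 10 higher and a median log2 fold change of -0.04 (1462 FPKM in PTBP1_KO, 1193 FPKM in WT; Insl3 passed). Without Insl3 the other 9 summed to 413 FPKM in PTBP1_KO and 443 FPKM in WT, a ratio of 0.932. Of 7 epididymis markers 5 were higher, at 14.01 FPKM summed in PTBP1_KO and 3.11 FPKM in WT. Crisp1, Defb26, Defb28 and Spink8 passed. Lcn8 was listed at 0 in both groups and Lcn5, Defb26 and Defb28 at 0 in WT, and Lcn5 and Lcn8 were not tested. Rnase10 stood at 1.975 FPKM in PTBP1_KO and 1.984 FPKM in WT (q = 0.999 in the authors' deposited table). The summed ratio of the epididymis markers was 4.51, and 2.65 without Crisp1. The part of these cell types in the Atp1b2 and FXYD values was not tested.

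Markers of later germ cells, the cells in which Atp1a4 is known, were set beside it. Spermatocyte markers were higher in 2 of 11 (967 FPKM summed in PTBP1_KO, 1054 FPKM in WT) and round spermatid markers in 1 of 10 (1727 FPKM in PTBP1_KO, 1859 FPKM in WT). Elongating spermatid markers were higher in 9 of the 11 tested (56605 FPKM in PTBP1_KO, 53352 FPKM in WT). The list's remaining gene, Odf2, was not tested (status HIDATA), so its listed 0 in both groups is not a level. None of these 3 lists had a call at q under 0.05, where 1.16% of all tested genes did, so lists this small say little by that count. The ratio of PTBP1_KO to WT was 1.08 for Atp1a4, 1.06 for the summed elongating spermatid markers (1.001 without Prm1), 0.929 for round spermatid markers, 0.917 for spermatocyte markers and 0.972 for Atp1b3.

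**Figure D4:**
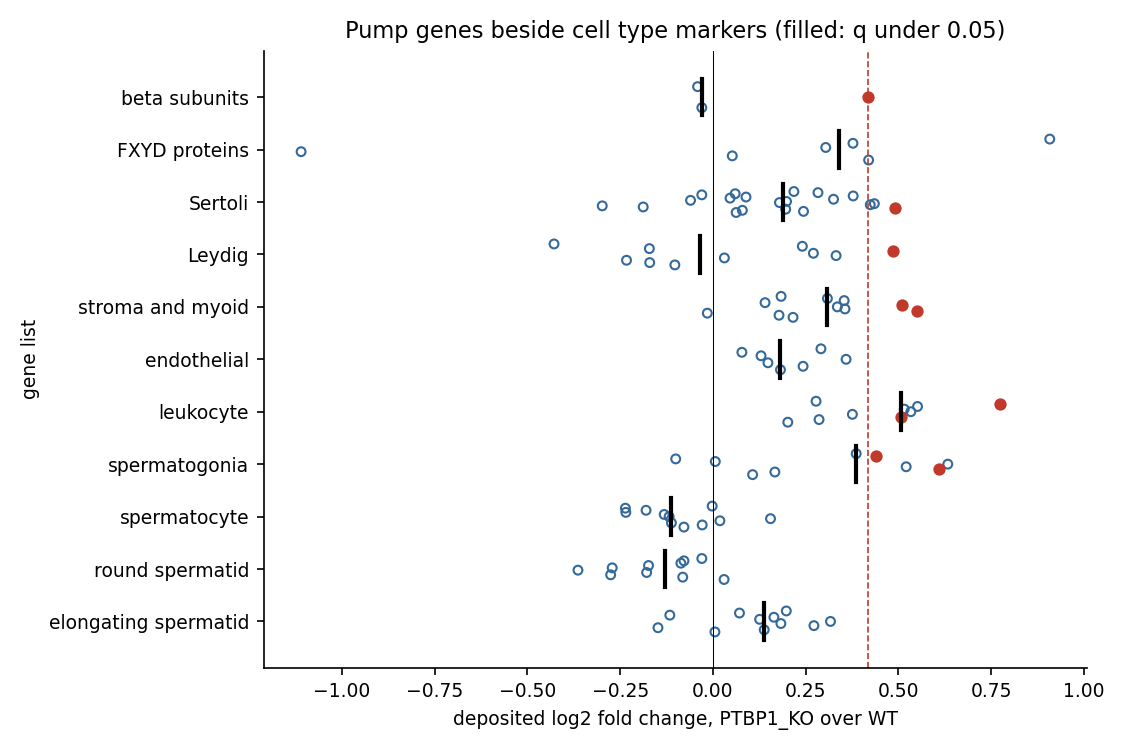
Deposited log2 fold change of each gene of the beta and FXYD lists and of the cell type marker lists with at least 0.1 FPKM in a group, with the list median as a black bar, genes of q under 0.05 filled, and Atp1b2 marked by the dashed line at 0.42. The medians are 0.51 for leukocyte, 0.39 for spermatogonial, 0.31 for stroma and myoid, 0.19 for Sertoli cell and 0.18 for endothelial markers. They are 0.14 for elongating spermatid, -0.04 for Leydig cell, -0.11 for spermatocyte and -0.13 for round spermatid markers. With a pseudocount of 1 the medians were 0.15 for spermatogonial and 0.28 for stroma and myoid markers. Over genes of at least 1 FPKM they were 0.25 and 0.31, so the order of these lists depends on the setting.

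The neighbours of each gene were set beside it. Atp1b2 lies between Trp53, which encodes the p53 tumour suppressor, and Shbg, which encodes the androgen-binding protein of rodent Sertoli cells, and overlaps neither. Shbg lies 8862 bp from Atp1b2 and stood at 6.89 FPKM in PTBP1_KO and 5.62 FPKM in WT (p = 0.0462 before adjustment and q = 0.537 by the authors' deposited table). Trp53 stood at 11.4 FPKM in PTBP1_KO and 9.81 FPKM in WT (q = 0.683 in the authors' deposited table). Within 500 kb of the start of Atp1b2, 0 of 58 other tested genes passed, with a median log2 fold change of 0.09 and a range of -0.34 to 0.66. Likewise 0 of 22 passed around Atp1a4, 0 of 16 around Atp1b1 and 0 of 8 around Atp1b3. Over all tested genes 1.16% passed, so counts of 0 in sets this small say little about these neighbourhoods. The median log2 fold change of all tested genes above 0 in both groups was 0.005. Atp1a4 lies between Casq1, which encodes a calcium-binding protein of the sarcoplasmic reticulum, and Igsf8, which encodes a membrane protein of the immunoglobulin superfamily. Casq1 stood at 4.58 FPKM in PTBP1_KO and 4.53 FPKM in WT, and Igsf8 at 6.18 FPKM in PTBP1_KO and 6.65 FPKM in WT, with q = 0.999 for both in the authors' deposited table.

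**Figure D5:**
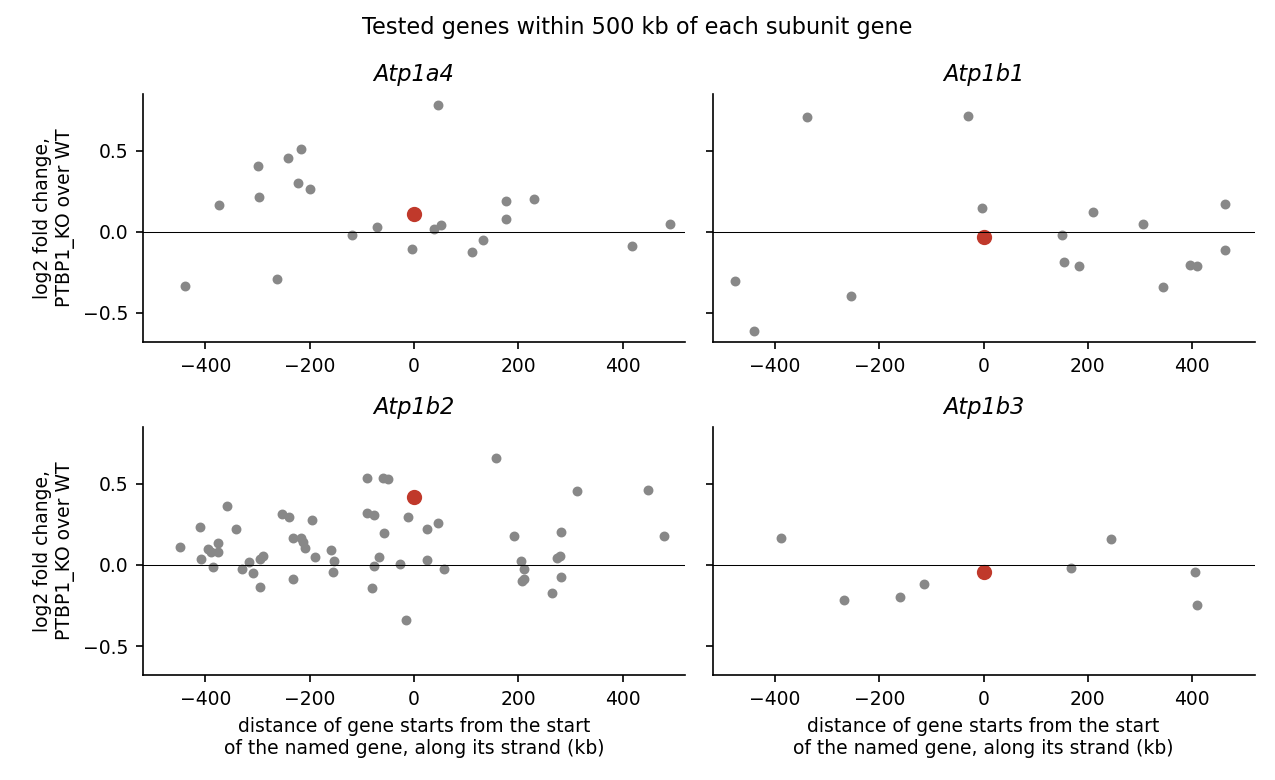
Deposited log2 fold change of tested genes against the distance of their start from the start of each of the 4 genes, in kb along that gene's strand, within 500 kb. The named gene is the large point at 0, and no other gene in any panel had q under 0.05; around Atp1b2 the 58 others range from -0.34 to 0.66.

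Sequence shared with other genes limits some of these values. No member had another gene matching 95% over 80% of its longest coding transcript. Atp1b1 and Nme7, which lies on the other strand, share 575 exonic bases at their 3′ ends, and Nme7 stood at 53.7 FPKM in PTBP1_KO and 61.3 FPKM in WT. The libraries were stranded per the labels, but whether the counting used strand is not given in the sources used here, so the Atp1b1 value is uncertain. Gm1848 matches 40.4% of the Atp1b3 transcript and stood at 0.0381 FPKM in PTBP1_KO and 0.0602 FPKM in WT. Between coding sequences over aligned bases, Atp1b2 was 66.1% identical to Atp1b1 and 64.3% to Atp1b3, and Atp1b1 61.9% to Atp1b3, with no shared run over 19 bases among these 3.

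The genes nearest to each member in both group values were sought as a description over 2 values only. Tmem176b (21.2 FPKM in PTBP1_KO, 15.4 FPKM in WT), Hbp1 and Camkk2 were nearest to Atp1b2, at distances of 0.06, 0.07 and 0.08 log2 units, and none of them passed the threshold. Kif2c, Sin3b and Rps10 were nearest to Atp1a4, Sept12, Nbr1 and Stk39 to Atp1b3, and Trappc2l, Pde10a and Mpc1 to Atp1b1. These 9 lay within 0.05 log2 units of their member, and none passed either.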

How the data were processed

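Groups were taken from the library titles (3 PTBP1_KO and 3 WT libraries). Per the submitters' processing notes, bcl2fastq 2.20, Trimmomatic 0.38, STAR 2.6.1d, Cufflinks and Cuffdiff were used with build mm10; no setting is stated. The deposited table holds 1 FPKM value per group, which the authors obtained by combining libraries, and per the file headers a log2 fold change (PTBP1_KO over WT), a signed test score (the statistic), and a p-value and q-value. The deposited q equalled Benjamini-Hochberg values over the 22048 genes of status OK within 5.2e-07, and all p were multiples of 5e-05. The test is Cuffdiff's as deposited, at q under 0.05. No test per library could be made, so no SD is given.

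The members and lists were chosen with earlier results of these data known. Named genes are the members, the pump lists, the 3 tested genes nearest each member in log2 FPKM of both groups (no predicted genes), and flanking or overlapping genes; cell type markers and Ptbp1 are given for context. Some genes of the lists are not reported here and stand in no list, figure of the lists or count of neighbours. A list median is over genes with at least 0.1 FPKM in a group and above 0 in both. Positions are from GENCODE M21, 1-based. Fragment weights were fitted to low FPKM of genes with a single exon of a single transcript. Of 428 low values in PTBP1_KO 100.0%, and of 430 in WT 99.5%, lay within 1% of a sum of 1 or 2 steps. Sums of 2 steps lie close together in PTBP1_KO, so this share does not check the separate weights. Fragment numbers cover counting error only and assume the longest coding transcript. That fit and the adjustment were tested on simulated data. The simulated steps lay further apart than the closest fitted steps of PTBP1_KO, 0.004996 and 0.005115. Whether the fit can separate steps that close was not tested. Copies were sought with BLAST 2.17.0, and coding sequences aligned with Biopython 1.88. The alternatives were other thresholds, a normal p from the statistic, a filter at 1 FPKM, pseudocounts of 1 and 0.1, and other scalings.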

Additional observations from a re-analysis of the deposited data

How the results depend on the processing

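The call of Atp1b2 held at q under 0.1 and with genes under 1 FPKM left out (adjusted value 0.0222). It was lost at q under 0.01, where its q was 0.0281 and 0 members passed, and with the normal p from the statistic (adjusted value 1, 0 members); the cause was not tested. Its log2 difference stayed between 0.40 and 0.46 under the pseudocounts and scalings. Atp1a4 (0.11 to 0.15) and Atp1b3 (-0.04 to -0.002) kept their sign, and Atp1b1, uncalled, went to 0.0095 when FPKM were rescaled outside the 50 most abundant genes, a shift of 0.04. No other member gained a call. Over all genes, 130 passed at q under 0.01 (50 higher, 80 lower in PTBP1_KO), 421 at q under 0.1 (184 higher, 237 lower), 19 with the normal p (9 higher, 10 lower) and 255 with the filter at 1 FPKM, against 256 in the deposited test. The FXYD list median was 0.21 with a pseudocount of 1. The spermatogonial list median, 0.39 without a pseudocount, was 0.15 with a pseudocount of 1. It was 0.25 over genes of at least 1 FPKM. Leaving out the gene with the largest difference from each summed marker list, chosen after seeing the data, put the Sertoli and Leydig cell ratios under 1. Replicates could not be left out, since the table holds group values only. No paired analysis was possible because the columns carry no replicate.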
